A study of Mus musculus with 12 samples.

Results

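The 41 genes described here are S phase and DNA replication genes, a list of symbols that was matched to Ensembl gene identifiers. For a symbol with several identifiers, the rule was to take the one with the most counts. The list was chosen with earlier results of these data known. All 41 were found among the 35855 genes to which the deposited transcripts belong, and all 41 had enough reads to be tested in each of the 5 comparisons below. The RNA came from mouse CD8 T cells sorted from spleen by FACS, in 4 groups of 3 libraries. WT donors were B6-Ly5.1 or C57Bl/6J mice, and TCF-1 cKO donors carried a floxed gene for the transcription factor TCF-1 (Tcf7) with CD4cre, which deletes it in all T cells from the double-positive thymocyte stage on. No group held Cre without the floxed gene, so the Cre and the deletion cannot be told apart. Pre-transplant cells were sorted from the donors themselves. Day 7 cells were H2Kb+ donor CD8 T cells taken from the spleen of lethally irradiated BALB/c recipients 7 days after transfer. By the methods donor CD3 T cells were transferred, with the addition that donor CD8 T cells were also sorted before transplant. A figure legend of the study describes sorted CD8 T cells as the cells transplanted. T-depleted WT bone marrow was given as well, in a model of graft-versus-host disease. By the methods the donors were female and near the recipients in age, and the sequencing was done once, and p-values measure only the spread between the 3 libraries of a group.

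A cell copies its genome once per division. Before S phase the MCM helicase, a ring of 6 different subunits, is loaded at origins, and it is then switched on by CDC45 and the GINS complex. DNA polymerases follow with the sliding clamp PCNA, while ribonucleotide reductase and thymidylate synthase supply nucleotides and histone chaperones repackage the new DNA. Resting T cells hold this programme low, and activation through the T cell receptor turns it on, largely through transcription factors of the E2F family.

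Depth and labels were checked first. The libraries held 4520270 to 9577076 estimated counts in TCF-1 cKO pre-transplant and 18184814 to 32657005 in the other 9. Tcf7, the targeted gene, read 117, 76.1 and 166 normalised CPM (counts scaled to a common library size) in WT pre-transplant and 26.3, 34.3 and 62.9 in TCF-1 cKO pre-transplant. At day 7 it read 26.9, 26.5 and 10.7 in WT and 14.6, 13.7 and 14.1 in TCF-1 cKO. The library labelled WT day 7 replicate 3 thus lay below all TCF-1 cKO libraries of its stage, although the sum covers all exons, also those outside the deletion. The difference in Tcf7 did not pass the test at either stage (edgeR quasi-likelihood test, log2 fold change −1.35 and adjusted p = 0.223 pre-transplant, −0.91 and 0.308 at day 7). A label of TCF-1 cKO day 7 replicate 2 names CD4 T cells, but it read 622 normalised CPM of Cd8a and 2.04 of Cd4. In WT pre-transplant Cd4 read 110, 87.3 and 85.7 normalised CPM, against 154, 87.2 and 152 of Cd8a. In TCF-1 cKO pre-transplant it read 22.9, 23.4 and 48.7, against 26.5, 28.8 and 30.9 of Cd8a. Across the day 7 libraries Cd4 was 1.25 to 7.00 and Cd8a 478 to 906. Summed markers of B cells (7 genes) were 4865 to 6651 CPM in the 6 pre-transplant libraries, above the 5 T cell markers at 563 to 1234, and 24.3 to 45.2 CPM at day 7, where T cell markers reached 3125 to 5167. Against the label of sorted CD8 T cells, B cell markers thus outweighed T cell markers in all 6 pre-transplant libraries.

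The promoters of the MCM genes are shown because these genes make up most of the helicase loading group and E2F factors are known regulators of this programme. Whether E2F factors act on these promoters in these cells was not tested. All 5 MCM genes with an entry in the table of promoters are given, chosen after their values were seen. Each line gives 250 bases before and 50 after the start of transcription in RefSeq (build GRCm38.p6), 5′ to 3′ on the gene's own strand. Capitals mark 4 letter strings of the E2F site, TTTCCCGC, TTTGGCGC, TTTCGCGC and TTTGCCGC, on either strand, with overlapping matches merged. The windows are chr8:75109259-75109558 (+ strand) for Mcm5, chr6:88898731-88899030 (−) for Mcm2, chr1:20820263-20820562 (−) for Mcm3, chr1:128359656-128359955 (−) for Mcm6 and chr5:138171834-138172133 (−) for Mcm7, the first of its 2 entries.
Mcm5: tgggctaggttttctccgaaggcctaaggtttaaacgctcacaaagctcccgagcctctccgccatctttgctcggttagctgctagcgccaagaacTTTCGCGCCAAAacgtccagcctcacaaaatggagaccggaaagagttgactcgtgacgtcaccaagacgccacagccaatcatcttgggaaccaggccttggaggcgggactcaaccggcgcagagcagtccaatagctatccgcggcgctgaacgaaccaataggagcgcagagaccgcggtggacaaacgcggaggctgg
Mcm2: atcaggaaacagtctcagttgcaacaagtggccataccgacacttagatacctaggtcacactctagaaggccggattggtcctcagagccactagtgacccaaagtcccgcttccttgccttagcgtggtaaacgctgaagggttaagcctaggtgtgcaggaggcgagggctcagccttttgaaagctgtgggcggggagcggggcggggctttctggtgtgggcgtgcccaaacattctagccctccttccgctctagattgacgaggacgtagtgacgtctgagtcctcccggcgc
Mcm3: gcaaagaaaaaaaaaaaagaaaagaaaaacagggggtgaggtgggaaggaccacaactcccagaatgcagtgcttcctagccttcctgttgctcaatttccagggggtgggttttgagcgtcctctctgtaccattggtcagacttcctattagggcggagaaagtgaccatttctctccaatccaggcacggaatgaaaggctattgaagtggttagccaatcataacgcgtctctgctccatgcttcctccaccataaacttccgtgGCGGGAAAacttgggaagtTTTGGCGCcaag
Mcm6: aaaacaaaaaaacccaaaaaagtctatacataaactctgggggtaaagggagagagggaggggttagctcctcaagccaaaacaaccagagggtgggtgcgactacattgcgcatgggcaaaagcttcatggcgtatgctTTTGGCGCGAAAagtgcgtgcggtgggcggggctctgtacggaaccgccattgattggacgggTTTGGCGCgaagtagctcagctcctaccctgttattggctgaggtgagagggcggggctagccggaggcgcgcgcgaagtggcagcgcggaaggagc
Mcm7: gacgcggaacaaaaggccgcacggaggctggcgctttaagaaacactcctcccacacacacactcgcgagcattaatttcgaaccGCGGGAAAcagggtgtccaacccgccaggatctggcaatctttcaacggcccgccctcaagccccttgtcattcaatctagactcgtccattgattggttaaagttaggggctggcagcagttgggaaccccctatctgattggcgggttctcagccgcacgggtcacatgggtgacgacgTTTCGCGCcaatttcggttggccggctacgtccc
Counting the start base as 0, the 2 overlapping matches of Mcm5 began at −153 and −149, and those of Mcm3 at 19 and 38. Mcm6 held 3 matches between −110 and −47, 2 of them overlapping, and Mcm7 held 2, at −165 and 16. The window of Mcm2 held 0 matches. The table of promoters matched 31 of the 41 genes. Of these, 14 (45.2%) held an E2F string, against 704 of 27025 promoters of all genes (2.6%). The 14 were Casp8ap2, Cdc6, Cdca7, Clspn, Dtl, Hells, Mcm3, Mcm5, Mcm6, Mcm7, Pola1, Pold3, Ubr7 and Uhrf1. The string CCAAT was found in 67.7% of the 31 and 41.1% of all promoters, and the cell cycle homology strings TTTGAA or TTTAAA in 29.0% and 30.6%. Promoters of Atad2, Ccne2, Dscc1, Exo1, Gins2, Gmnn, Mcm4, Rfc2, Tipin and Usp1 were not analysed here.

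The first question was how the genes differed between donor CD8 T cells before transfer and 7 days after it. Many of the 41 genes were higher at day 7 in each genotype. In WT cells 19 of the 41 genes were higher at day 7 and 0 were lower, where 9.7% of the 16790 genes tested were called higher and 10.3% lower (edgeR, Benjamini-Hochberg adjusted p under 0.1, the meaning of called throughout). In WT 23 genes had an unadjusted p under 0.05, and DESeq2 called 1 lower (12.8% of all genes) and limma-voom 0. In TCF-1 cKO cells 31 were higher and 2 lower, where 19.7% of the 18535 genes tested were called higher and 16.8% lower. The median log2 fold change of the 41 genes was 1.70 in WT and 2.40 in TCF-1 cKO, while the medians of all genes tested were −0.30 and −0.29. Both comparisons set donor spleen against recipient spleen, so transfer, host and time cannot be told apart. The pre-transplant libraries also held more B cell than T cell markers, and the day 7 libraries did not. Summed T cell markers were 819 to 974 normalised CPM pre-transplant and 5139 to 6856 at day 7 in WT. In TCF-1 cKO they were 244 to 397 and 6212 to 8394. The part of other cells, and of this change in T cell markers, in the rises of the 41 genes was not tested.

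**Figure D1:**
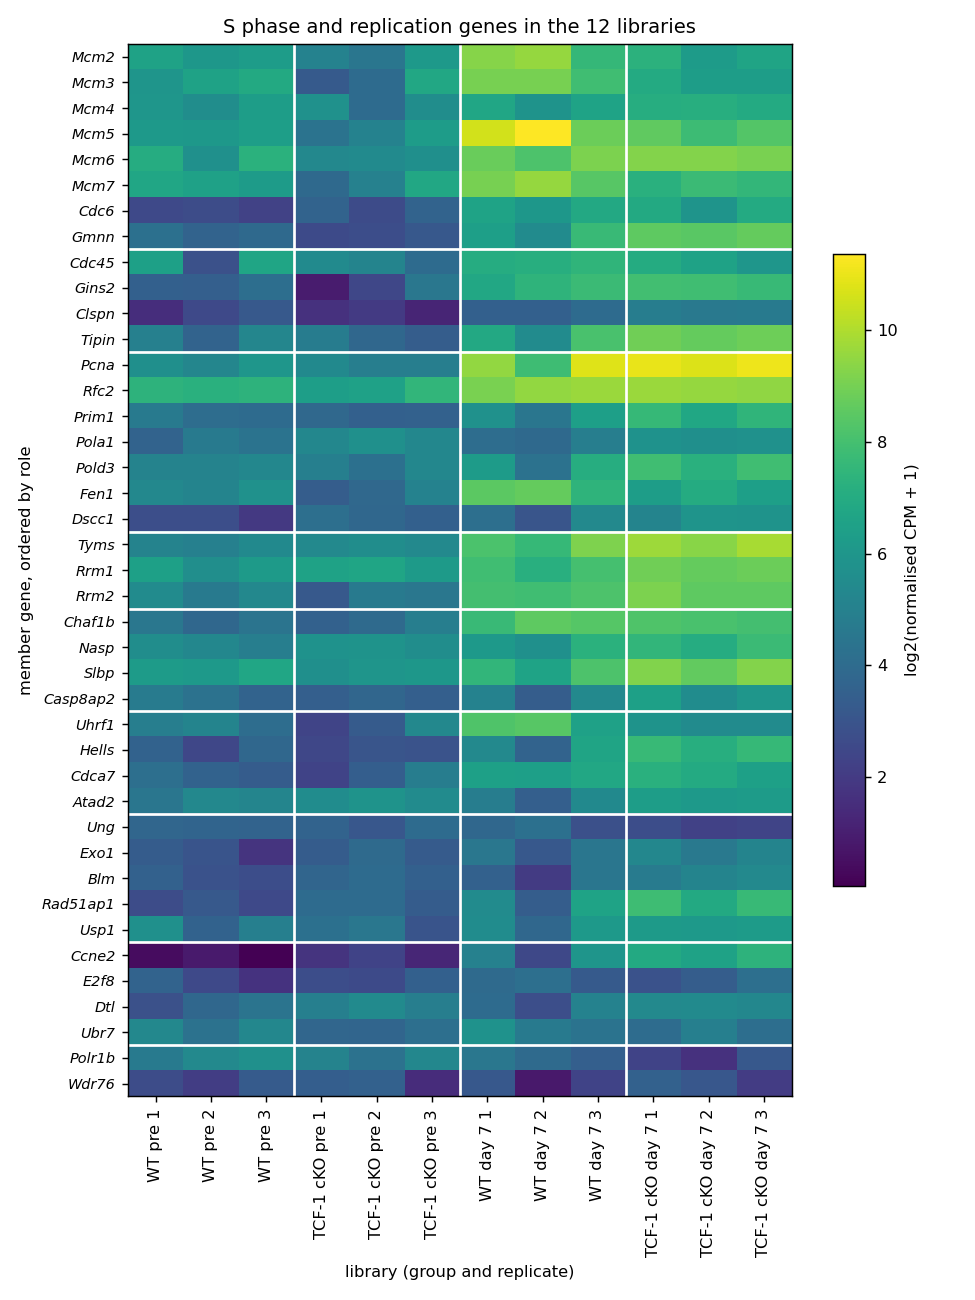
Levels of the 41 genes, one line each and ordered by role, in the 12 libraries. Colour is log2 of normalised CPM plus 1, and white lines separate roles and groups. Most genes are brighter in the 6 day 7 libraries, Mcm5 is brightest in WT day 7 replicates 1 and 2, and Pcna is brightest in the TCF-1 cKO day 7 libraries and the library labelled WT day 7 replicate 3.

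In levels per length (TPM, a share of transcripts corrected for their length), the genes spanned a wide range at day 7. Pcna was the most abundant in TCF-1 cKO day 7 at 706 ± 56.8 TPM (SD, n = 3), followed by Tyms at 525 ± 71.5 and Rfc2, which encodes a subunit of the clamp loader, at 263 ± 22.2. In WT day 7 Pcna stood at 347 ± 291 TPM and Mcm5 at 286 ± 179, with SDs that did not separate them from each other or from Rfc2 at 259 ± 30.9. Pre-transplant, Rfc2 led in both genotypes, at 161 ± 3.99 TPM in WT and 130 ± 35.9 in TCF-1 cKO. At the low end of TCF-1 cKO day 7 stood Ung at 1.03 ± 0.181, Polr1b at 1.11 ± 0.625 and Wdr76 at 1.19 ± 0.586 TPM.

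Among the 8 genes of helicase loading (Mcm2 to Mcm7, the loader Cdc6 and the licensing inhibitor Gmnn), 7 rose in each genotype. In TCF-1 cKO the calls of Mcm2 (log2 fold change 1.42) and Mcm7 (1.81) were lost when most single libraries were left out. Scaled by library totals alone, they read −0.10 and 0.39. Mcm5 (chr8:75109569-75128439, GRCm38) read 70.4, 65.7 and 82.3 normalised CPM in WT pre-transplant, 19.5, 32.6 and 78.8 in TCF-1 cKO pre-transplant, 1546, 2624 and 449 in WT day 7, and 382, 225 and 326 in TCF-1 cKO day 7. Every day 7 library was above every pre-transplant library. Its log2 fold change was 4.17 (SE 0.68, adjusted p = 0.00401) in WT and 2.83 (SE 0.54, adjusted p = 0.00427) in TCF-1 cKO. Cdc6 (chr11:98907801-98923940), which loads the helicase at origins, went from 4.74, 5.41 and 3.83 normalised CPM in WT pre-transplant to 96.5, 64.4 and 115 at day 7. In TCF-1 cKO it went from 11.4, 5.21 and 11.7 to 121, 59.6 and 122. The stages did not overlap, and the log2 rises were 4.05 (SE 0.58, adjusted p = 0.00258) and 3.41 (SE 0.49, adjusted p = 0.000967). Gmnn (geminin, chr13:24751845-24761923), which blocks reloading within a cycle, read 17.7, 11.7 and 14.3 in WT pre-transplant, 5.10, 5.60 and 8.08 in TCF-1 cKO pre-transplant, 85.0, 43.7 and 209 in WT day 7, and 369, 354 and 408 in TCF-1 cKO day 7. It had the largest log2 rise in TCF-1 cKO, 5.90 (SE 0.41, adjusted p = 0.000105), and rose by 2.67 (SE 0.65, adjusted p = 0.0226) in WT.

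Mcm2 (chr6:88883474-88898780) went from 94.6, 64.3 and 78.5 normalised CPM to 636, 764 and 191 in WT, and from 32.8, 21.5 and 70.5 to 157, 75.6 and 101 in TCF-1 cKO. Mcm3 (chr1:20802968-20820312) went from 60.6, 94.0 and 120.3 to 525, 527 and 233 in WT. In TCF-1 cKO its pre-transplant values of 8.62, 14.96 and 112 overlapped the day 7 values of 122, 80.4 and 79.4. Mcm3 was thus called higher in WT (1.999, SE 0.55, adjusted p = 0.0362) and did not pass in TCF-1 cKO (1.07, SE 0.81, adjusted p = 0.362). Mcm4 was the reverse, with 0.23 (SE 0.51, adjusted p = 0.815) in WT and 1.78 (SE 0.49, adjusted p = 0.023) in TCF-1 cKO. Neither gene passed the test of the difference between these stage changes, given further on.

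Transcripts of fork proteins rose in 2 of 4 cases in WT and 4 of 4 in TCF-1 cKO. Tipin (chr9:64281581-64305424), part of the complex that protects stalled forks, read 30.5, 11.4 and 37.0 normalised CPM in WT pre-transplant, 26.4, 13.0 and 9.57 in TCF-1 cKO pre-transplant, 116, 43.8 and 275 in WT day 7, and 476, 412 and 461 in TCF-1 cKO day 7. The lowest TCF-1 cKO day 7 value was above the highest WT one. Tipin rose by 2.18 (SE 0.73, adjusted p = 0.0742) in WT and 4.77 (SE 0.49, adjusted p = 0.000193) in TCF-1 cKO. Gins2 (chr8:120578633-120589304), a GINS subunit of the active helicase, went from 10.3, 10.04 and 16.5 to 114, 169 and 216 in WT and from 0.879, 4.44 and 22.1 to 242, 234 and 204 in TCF-1 cKO. Its stages were well separated, with rises of 3.48 (SE 0.54, adjusted p = 0.00328) and 4.63 (SE 0.95, adjusted p = 0.00618). Cdc45 and Clspn passed in TCF-1 cKO, at 1.61 and 3.57, and read 0.93 and 0.98 in WT without passing.

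Of the 7 genes for polymerases, clamp and flap cleavage, 3 rose in WT (Pcna, Rfc2 and Fen1) and 6 in TCF-1 cKO. Pcna (chr2:132249162-132253314) read 50.002, 36.7 and 63.1 normalised CPM in WT pre-transplant, 41.8, 28.5 and 28.7 in TCF-1 cKO pre-transplant, 738, 228 and 1768 in WT day 7, and 1996, 1749 and 2169 in TCF-1 cKO day 7. The WT day 7 libraries were spread widely, and the library labelled WT day 7 replicate 3 lay within the TCF-1 cKO range. Pcna rose by 3.91 (SE 0.72, adjusted p = 0.00706) in WT and 5.89 (SE 0.41, adjusted p = 0.000105) in TCF-1 cKO. The primase and polymerase delta genes Prim1 and Pold3 passed in TCF-1 cKO, at 3.77 and 2.85, and read 1.25 and 0.85 in WT without passing. Pola1, the catalytic subunit of polymerase alpha, passed in neither, at −0.22 in WT and 0.31 in TCF-1 cKO.

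Of the genes for deoxynucleotide supply, 2 of 3 rose in WT and 3 of 3 in TCF-1 cKO. Tyms (thymidylate synthase, chr5:30058202-30073617) went from 33.5, 30.5 and 41.4 normalised CPM to 281, 194 and 574 in WT, and from 40.5, 46.5 and 40.9 to 842, 652 and 939 in TCF-1 cKO. All 3 TCF-1 cKO day 7 libraries exceeded all WT ones. Its log2 rises were 3.04 (SE 0.55, adjusted p = 0.00656) and 4.24 (SE 0.37, adjusted p = 0.000119). Rrm2, the small subunit of ribonucleotide reductase, rose by 2.62 and 4.58. The large subunit Rrm1 rose by 2.30 in TCF-1 cKO and read 1.35 in WT (adjusted p = 0.104).

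Of the genes for histone supply and nucleosome assembly, 1 of 4 rose in WT and 4 of 4 in TCF-1 cKO. Chaf1b (chr16:93883901-93906115), a subunit of the chaperone that places histones on new DNA, went from 21.9, 13.0 and 19.9 to 207, 369.9 and 329 normalised CPM in WT and from 10.6, 14.7 and 29.0 to 302, 276 and 253 in TCF-1 cKO. It had the smallest adjusted p of the 41 genes in WT (3.78, SE 0.52, adjusted p = 0.00225) and rose by 3.93 (SE 0.47, adjusted p = 0.000344) in TCF-1 cKO. Slbp (chr5:33634952-33652574), which binds the stem-loop of histone mRNAs, read 76.3, 69.8 and 107 in WT pre-transplant, 49.9, 61.4 and 64.8 in TCF-1 cKO pre-transplant, 181, 96.8 and 288 in WT day 7, and 595, 393 and 608 in TCF-1 cKO day 7. The stages overlapped in WT and were apart in TCF-1 cKO, with 0.90 (SE 0.53, adjusted p = 0.306) and 3.17 (SE 0.37, adjusted p = 0.000308).

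Transcripts of chromatin factors rose in 2 of 4 genes in each genotype. Uhrf1 (chr17:56303321-56323486), which guides DNA methylation onto new strands, read 28.6, 34.3 and 16.0 in WT pre-transplant, 4.22, 8.79 and 38.8 in TCF-1 cKO pre-transplant, 301, 338 and 89.6 in WT day 7, and 57.2, 44.3 and 43.9 in TCF-1 cKO day 7. It rose in WT (2.99, SE 0.66, adjusted p = 0.015) and read 1.49 (SE 0.71, adjusted p = 0.147) in TCF-1 cKO. Hells (chr19:38930915-38971051), a helicase of the chromatin remodelling family, went from 11.1, 4.53 and 13.3 to 40.9, 11.5 and 101 in WT and from 4.48, 7.05 and 6.72 to 201, 138 and 194 in TCF-1 cKO. The stages overlapped in WT and not in TCF-1 cKO, with 2.12 (SE 0.80, adjusted p = 0.11) and 4.86 (SE 0.42, adjusted p = 0.000117). Atad2 (chr15:58094044-58135082), a bromodomain ATPase, stood at 21.2, 39.6 and 35.5 in WT pre-transplant, 46.2, 57.3 and 44.8 in TCF-1 cKO pre-transplant, 27.5, 10.1 and 41.1 in WT day 7, and 80.0, 68.1 and 74.7 in TCF-1 cKO day 7. It passed in neither genotype.

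Repair genes rose in 1 of 5 in WT and 4 of 5 in TCF-1 cKO, where the fifth, Ung, fell. Rad51ap1 (chr6:126923050-126939587), which acts in homologous recombination, went from 5.36, 8.18 and 4.87 normalised CPM to 43.7, 9.29 and 97.0 in WT, and from 15.03, 15.3 and 8.96 to 229.8, 121 and 205 in TCF-1 cKO. It rose by 2.74 (SE 0.81, adjusted p = 0.0487) and 3.81 (SE 0.44, adjusted p = 0.000315). Ung (chr5:114130386-114139323), which removes uracil from DNA, went the other way in TCF-1 cKO, from 11.7, 7.72 and 15.1 to 5.52, 3.69 and 4.15, and from 12.7, 11.8 and 11.4 to 13.1, 17.5 and 5.90 in WT. Its TCF-1 cKO stages did not overlap, and the log2 fold change was −1.38 (SE 0.50, adjusted p = 0.0694). That call was lost without any of 5 of the 6 TCF-1 cKO libraries and with the correction for GC content (−0.99).

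Ccne2 (cyclin E2, chr4:11191351-11204779), which drives entry into S phase, was the only gene of the cell cycle control group that rose, in both genotypes. It read 0.322, 0.808 and 0.0325 normalised CPM in WT pre-transplant (12, 23 and 1 counts), 2.37, 3.96 and 1.43 in TCF-1 cKO pre-transplant, 31.5, 4.68 and 59.8 in WT day 7, and 120.5, 92.3 and 164 in TCF-1 cKO day 7. The rise was 6.09 (SE 1.27, adjusted p = 0.012) in WT, from very low counts, and 5.59 (SE 0.54, adjusted p = 0.000163) in TCF-1 cKO. E2f8, Dtl and Ubr7 passed in neither. Polr1b (chr2:129100995-129126594), a subunit of RNA polymerase I, fell in TCF-1 cKO from 33.2, 19.1 and 37.6 to 4.03, 2.20 and 7.98 (−2.66, SE 0.57, adjusted p = 0.00768). In WT it went from 24.0, 40.98 and 52.7 to 22.2, 14.4 and 9.92, without passing (−1.55, adjusted p = 0.129).

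**Figure D2:**
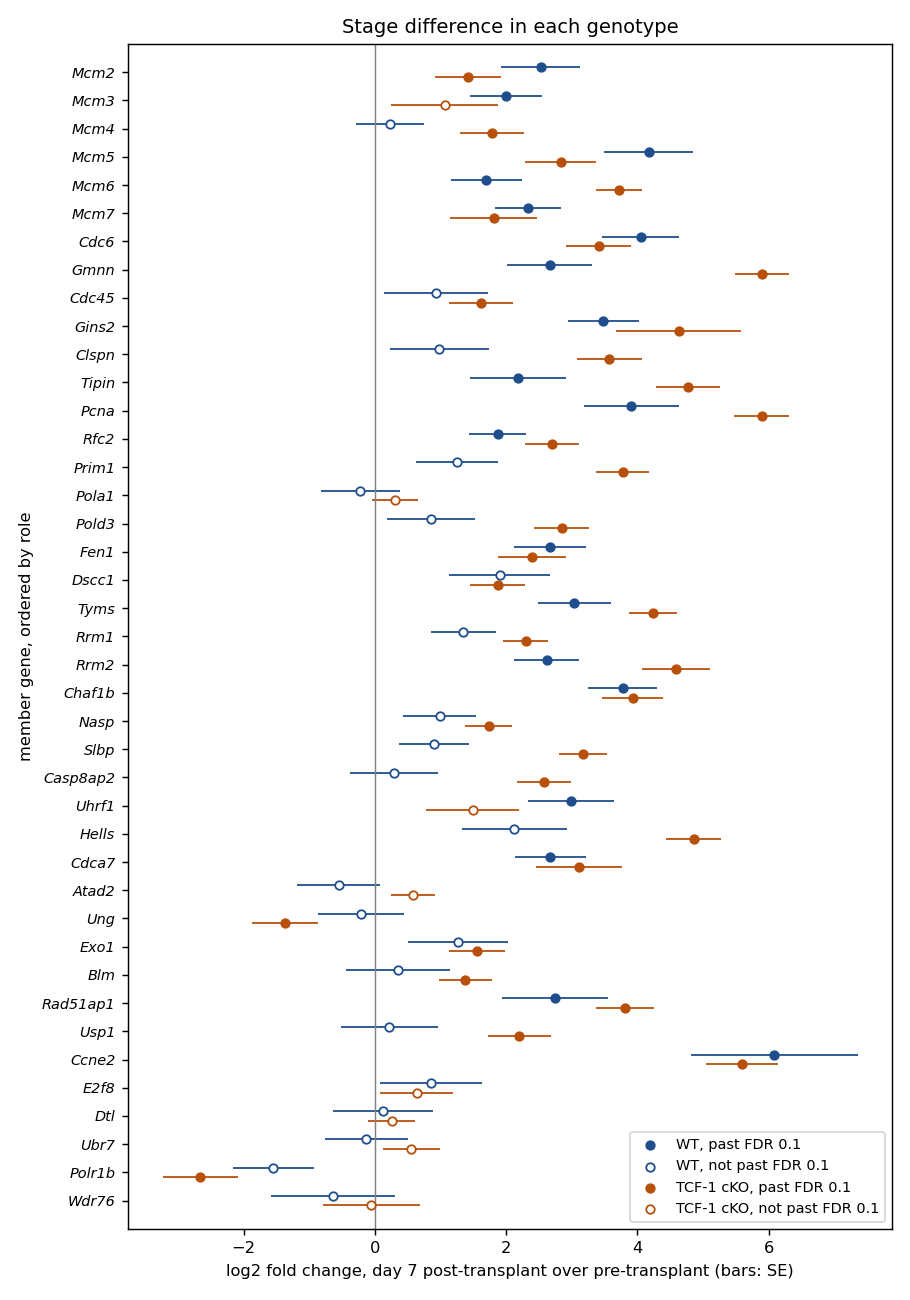
Log2 fold change of each gene, day 7 over pre-transplant, in WT and in TCF-1 cKO (3 libraries per group). Points are estimates of the edgeR model, bars are 1 SE to each side, and filled points passed adjusted p under 0.1. There are 19 filled points to the right of 0 in WT and 31 in TCF-1 cKO, and 2 to the left of 0, Ung and Polr1b, both in TCF-1 cKO.

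The stage comparisons of the genotypes share no library, but both set pre-transplant libraries with high B cell markers against day 7 libraries with low ones. Of the genes called higher, 17 were common to both, which is 89.5% of the WT list and 54.8% of the TCF-1 cKO list. Another 14 passed in TCF-1 cKO alone, 2 (Mcm3 and Uhrf1) in WT alone and 8 in neither. With each library's trend of level on GC content removed, 25 were higher in WT (14.9% of all genes were called higher and 9.87% lower) and 31 in TCF-1 cKO (21.4% and 19.2%). Of these, 24 were shared, 96% of the WT list and 77.4% of the TCF-1 cKO list. The shared part over all genes was not counted in either fit, so these shares have nothing to be set against. Leaving out the library labelled WT day 7 replicate 3 gave 18 higher in WT (13.4% of all genes), while leaving out WT day 7 replicate 2 gave 26 (10.3%) and WT pre-transplant replicate 3 gave 11 (3.68%). Without TCF-1 cKO pre-transplant replicate 3, 33 were higher in TCF-1 cKO (4396 of all 21454 genes tested), Mcm3 and Uhrf1 among them. The place of these genes in WT alone thus rested on that library.

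Values that moved with stage stand beside these counts. Without a correction for composition (scaling by library totals), the median over all genes shifted from −0.30 to −1.25 in WT and from −0.29 to −1.89 in TCF-1 cKO. The median of the 41 genes became 0.83 and 0.91, with 14 and 20 called higher and 1 and 7 lower. Of all genes 4.27% were then called higher and 24.6% lower in WT, and 8.96% and 57.2% in TCF-1 cKO. In TCF-1 cKO the signs of Mcm2, Cdc45, Exo1 and Blm turned negative under this scaling. Relative to the median of all genes, the 41 genes lay 1.996 higher by the first scaling and 2.08 by the second in WT, and 2.68 and 2.80 higher in TCF-1 cKO. B cell markers were lower at day 7 in every library, as given above. Summed erythroid markers (7 genes) ranged from 4459 to 26475 CPM pre-transplant and from 205 to 1194 CPM at day 7, and myeloid markers (8 genes) from 1596 to 3704 CPM and from 119 to 503 CPM. Plasma cell markers (5 genes) ranged from 464 to 1800 CPM and from 47.1 to 122.7 CPM. No gene of these lists was at 0 in all libraries of a group. In bulk RNA fewer cells of a type and less RNA per cell cannot be told apart, and the part of these other cells in the stage differences was not tested.

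The second question was whether loss of TCF-1 went with other levels of these genes at day 7. Of the 6 genes of the MCM ring, Mcm2, Mcm3, Mcm5 and Mcm7 were lower in TCF-1 cKO, by 3.57-fold to 6.24-fold, while Mcm4 and Mcm6 differed by 0.36 (SE 0.45, adjusted p = 0.62) and 0.20 (SE 0.39, adjusted p = 0.763) on the log2 scale, signs that turned to −0.55 and −0.39 with the GC correction. Fen1, Uhrf1, Ung and Polr1b were also lower, so 8 of the 41 genes were called lower and 0 higher. Over all 16026 genes tested 15.4% were called lower and 2.51% higher, so the share of lower calls among the 41 is near that of all genes. By unadjusted p under 0.05 there were 17 genes, the 8 lower and 9 with a positive estimate, and limma-voom called 5 higher (3.63% of all genes) and DESeq2 9 (6.66%). The median log2 fold change of the 41 was 0.54 (all genes 0.15), and 27 of 41 were positive.

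**Figure D3:**
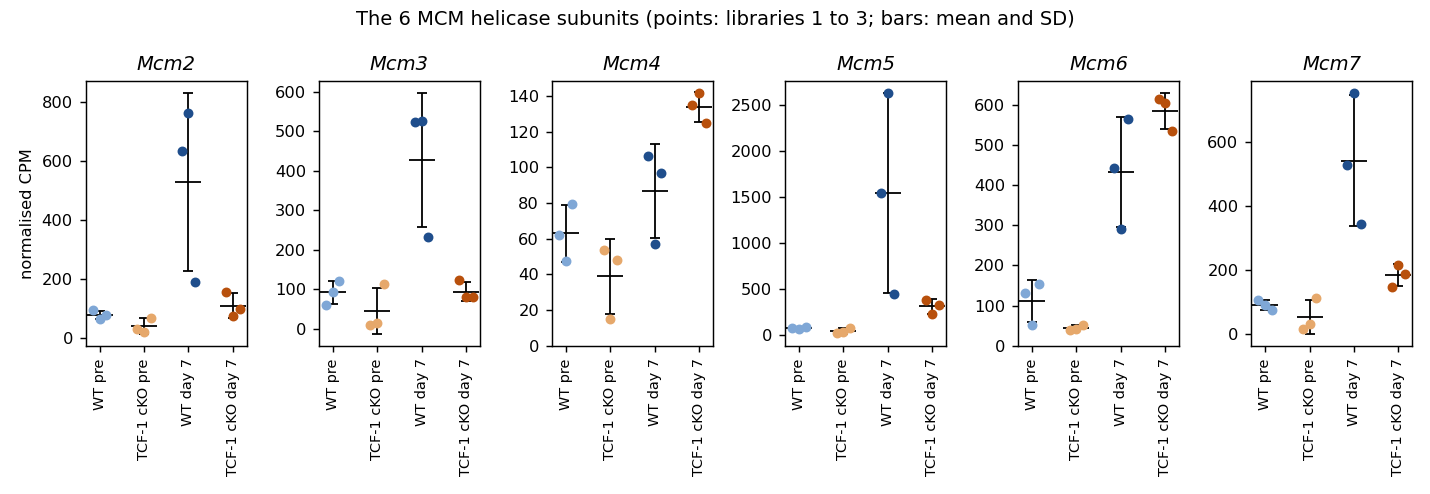
Normalised CPM of the 6 MCM subunits in the 4 groups. Points are the 3 libraries, and the horizontal line and bar are mean and SD, each panel with its own axis. In Mcm2, Mcm3, Mcm5 and Mcm7 all WT day 7 points lie above the TCF-1 cKO day 7 points, with the library labelled WT day 7 replicate 3 lowest (449 for Mcm5), and in Mcm4 all lie below.

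Uhrf1 had WT day 7 values of 301, 338 and 89.6 above TCF-1 cKO values of 57.2, 44.3 and 43.9 (−2.65, SE 0.62, adjusted p = 0.0448). Mcm3 followed the same pattern, at 525, 527 and 233 against 122, 80.4 and 79.4 (−2.51, SE 0.53, adjusted p = 0.0448). Mcm2 stood at 636, 764 and 191 against 157, 75.6 and 101 (−2.60, SE 0.64, adjusted p = 0.0459). In these 3 genes the groups did not overlap, and the library labelled WT day 7 replicate 3 was the one nearest to TCF-1 cKO. Mcm5 differed by −2.64 (SE 0.67, adjusted p = 0.0475) with the values given above. Mcm7 read 527, 752 and 343 in WT and 147, 214 and 187 in TCF-1 cKO (−1.84, SE 0.49, adjusted p = 0.052). Fen1, which trims flaps between Okazaki fragments, read 361, 412 and 169.8 against 80.9, 126 and 84.8 (−1.97, SE 0.55, adjusted p = 0.0572). The groups did not overlap in either gene. Ung (−1.76, SE 0.59, adjusted p = 0.0963) and Polr1b (−2.04, SE 0.65, adjusted p = 0.0851) were close to the threshold, and Ung in the library labelled WT day 7 replicate 3 (5.90) lay just above the highest TCF-1 cKO value (5.52).

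Genes with positive differences did not pass by edgeR. The 3 with the largest estimates were Ccne2 (1.77, SE 0.77, adjusted p = 0.174), Rad51ap1 (1.69, SE 0.72, adjusted p = 0.169) and Hells (1.62, SE 0.68, adjusted p = 0.161). Gmnn read 1.57 (SE 0.55, adjusted p = 0.107), Tipin 1.46 (SE 0.59, adjusted p = 0.152) and Slbp 1.27 (SE 0.46, adjusted p = 0.12). In all 6 the TCF-1 cKO day 7 values lay above all WT ones. Groups without overlap were found in 20 of the 41 genes with TCF-1 cKO higher and in 9 with it lower, where 23.4% and 17.3% of all genes had such values. By limma-voom the 5 called higher were Gmnn, Hells, Pola1, Slbp and Tipin.

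These differences moved with GC content. The 8 genes called lower had transcripts of 50.6 to 58.0% GC, while the 41 spanned 40.5 to 58.0% with a median of 47.9%. Across the 41 genes, Spearman's rho between log2 fold change and GC content was −0.671, and across all 16026 genes, which are not independent replicates, −0.551. The 10% of all genes with the lowest GC had a median of 0.67, and the 10% with the highest GC one of −2.45. The rank correlation of level with GC within each WT day 7 library was 0.254, 0.339 and −0.0506, and in TCF-1 cKO day 7 −0.302, −0.2 and −0.321. With each library's GC trend removed, 4 genes were lower, namely Mcm3 (−2.12, adjusted p = 0.0855), Mcm7 (−1.98, adjusted p = 0.0855), Uhrf1 (−1.58, adjusted p = 0.0921) and Cdc45 (−1.39, adjusted p = 0.0955), and 0 were higher. Of all genes 4.97% were then called lower and 1.22% higher. Mcm5 read −1.85 (adjusted p = 0.103) and Mcm2 −0.67 (adjusted p = 0.312) in that fit. Why levels moved with GC content was not tested.

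**Figure D4:**
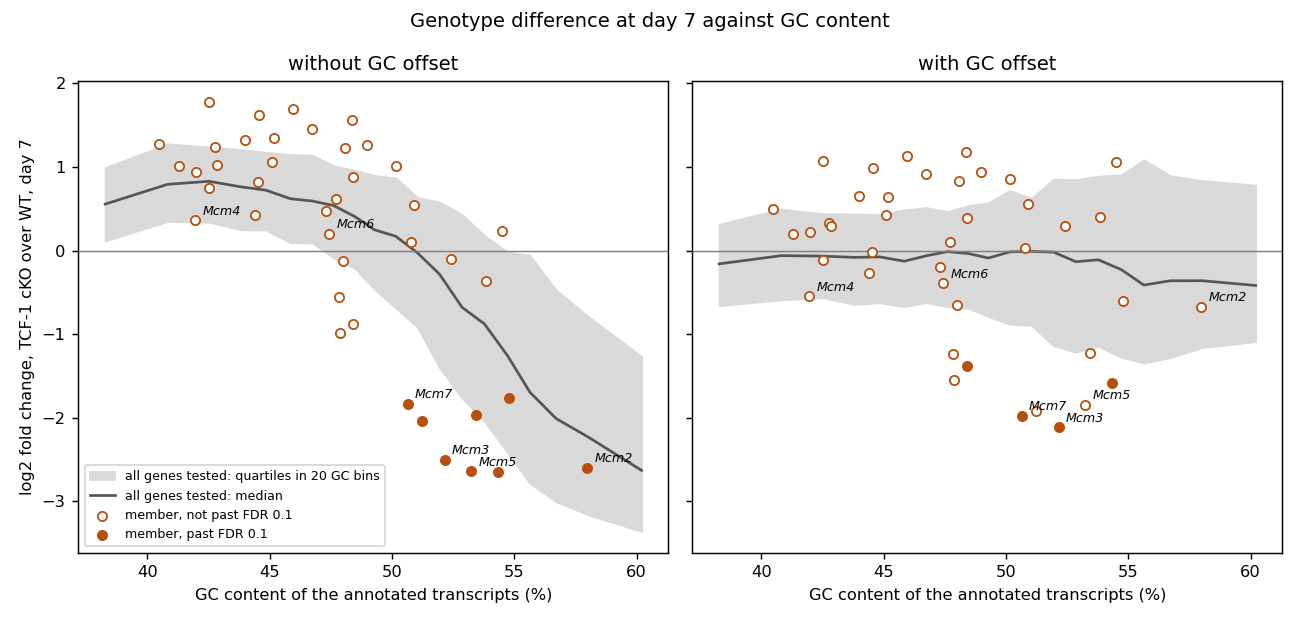
Log2 fold change at day 7, TCF-1 cKO over WT, against the GC content of the annotated transcripts, without and with removal of each library's GC trend. Orange points are the 41 genes, filled where adjusted p was under 0.1 (8 without and 4 with removal), the line is the median of all genes tested in 20 bins of GC and the band their quartiles. Without removal the line falls from low to high GC, and with removal it lies at −0.36 to −0.42 in the 4 bins of highest GC.

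The calls at day 7 rested on which libraries were used. Leaving out any of the 3 TCF-1 cKO libraries, or WT day 7 replicate 1 or 2, gave 0 lower and 0 higher, with smallest adjusted p of 0.109 to 0.178. Leaving out the library labelled WT day 7 replicate 3 gave the same 8 lower and 11 higher (Atad2, Ccne2, Gmnn, Hells, Pcna, Pola1, Prim1, Rad51ap1, Slbp, Tipin and Tyms), where 19.4% of all genes were called lower and 9.72% higher, so the share of lower calls is again near that of all genes. This library was the WT one nearest to the TCF-1 cKO mean in 35 of the 41 genes, at a median distance of 0.58 on the log2 scale, against 1.41 and 2.07 for replicates 1 and 2. Its 4.60% of mitochondrial reads lay between WT replicates 1 and 2, at 2.70% and 1.08%, and TCF-1 cKO at 4.68% to 8.15%. Scaling by library totals moved the median of all genes from 0.15 to 0.54 and left 4 lower calls (10.8% of all genes).

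In the pre-transplant comparison of the genotypes 0 of 41 genes were called in either direction by edgeR and by limma-voom, while DESeq2 called 2 higher (4.9% of all genes), and 6 had an unadjusted p under 0.05. Over all 18757 genes, 0.0213% were called lower and 0.016% higher. Those 6 were Ccne2 (2.99, SE 1.29), Dscc1 (1.77, SE 0.64), Dtl (1.58, SE 0.55), Pola1 (1.43, SE 0.49), Rad51ap1 (1.35, SE 0.62) and Mcm6 (−1.12, SE 0.46), with adjusted p from 0.223 to 0.28. Groups did not overlap in 7 genes with TCF-1 cKO lower and 6 with it higher, where 14.2% and 16.1% of all genes had such values. The median log2 fold change was −0.30, and 0.05 over all genes. TCF-1 cKO pre-transplant replicate 3 stood apart from replicates 1 and 2, as in Mcm3 (112 against 8.62 and 14.96) and Uhrf1 (38.8 against 4.22 and 8.79). Without it 5 genes were lower (Fen1, Mcm2, Mcm3, Mcm5 and Mcm7) and Pola1 higher, where 8.91% of all genes were called lower and 3.79% higher, so these counts lie near those of all genes. T cell markers summed to 563 to 613 CPM in TCF-1 cKO pre-transplant and 1166 to 1234 in WT, and the part of this difference was not tested.

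The last comparison asked whether the genotype difference itself changed from pre-transplant to day 7, in 1 model over the 12 libraries. By edgeR 0 of the 41 genes passed in either direction, where 0.00465% of 21526 genes were called lower and 0% higher. An unadjusted p under 0.05 was seen in 10 genes, limma-voom called 0 and DESeq2 8 higher (4.59% of all genes). The estimated difference of differences was 2.96 (SE 0.74, adjusted p = 0.233) for Gmnn, 2.46 (SE 0.91, adjusted p = 0.252) for Hells and 2.02 (SE 0.65, adjusted p = 0.235) for Slbp. Leaving out the library labelled WT day 7 replicate 3 gave 9 genes with a more positive difference at day 7, Casp8ap2, Gmnn, Hells, Mcm6, Pcna, Pold3, Prim1, Slbp and Tipin, where 5.48% of all genes were called higher. The larger number of genes called in TCF-1 cKO than in WT between stages is thus not shown to be a difference between the genotypes.

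The genes were also set out by their promoters. Of the 14 with a string, 7 rose in WT and 9 in TCF-1 cKO, with medians of 1.85 and 2.71. Of the 17 without, 7 rose in WT and 13 in TCF-1 cKO, with medians of 1.25 and 2.30, and 2 fell in TCF-1 cKO. At day 7, 4 genes of each set were lower in TCF-1 cKO, with medians of 0.15 and 0.47. A match says only that these letters lie in the window.

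A list of 45 other replication genes, covering origin recognition, further polymerase, clamp loader and single-strand binding subunits, gave the surroundings. Between stages 16 rose and 0 fell in WT, and 29 rose and 2 fell (Pold4 and Timeless) in TCF-1 cKO, with medians of 1.15 and 2.18. Of all genes 9.7% were called higher and 10.3% lower in WT, and 19.7% and 16.8% in TCF-1 cKO. Among the 45 genes the smallest p-values were those of Rpa2 (3.42, SE 0.48, adjusted p = 0.00226), Dut (3.75, SE 0.55, adjusted p = 0.00268) and Asf1b (3.99, SE 0.58, adjusted p = 0.00268) in WT. In TCF-1 cKO they were Rpa3 (6.63, SE 0.46, adjusted p = 0.000105), Rfc4 (6.64, SE 0.47, adjusted p = 0.000105) and Gins1 (4.86, SE 0.46, adjusted p = 0.000149). RPA coats single-stranded DNA, RFC4 loads the clamp and DUT keeps uracil out of the nucleotide pool. At day 7, 11 were lower in TCF-1 cKO and 0 higher, with Pold1 (−3.80, SE 0.86), Pold4 (−3.55, SE 0.68) and Pola2 (−2.69, SE 0.59), polymerase subunits, at adjusted p = 0.0448. With the GC correction 3 of the 11 passed (Pola2, Pold4 and Lig1). Of all genes 15.4% were called lower at day 7 without this correction and 4.97% with it. Pre-transplant and for the change of the genotype difference 0 of 45 passed.

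Of 12 E2F and pocket protein genes, the regulators of this programme, the dimer partner Tfdp1 rose in both genotypes (1.98, adjusted p = 0.0609 in WT and 3.69, adjusted p = 0.000274 in TCF-1 cKO) and Rbl2 in TCF-1 cKO (1.03, adjusted p = 0.0837). At day 7 E2f1 (−2.39), E2f2 (−2.49) and E2f4 (−3.60) were lower in TCF-1 cKO, and E2f4 alone passed with the GC correction. In the same fits 15.4% and 4.97% of all genes were called lower. Between stages 9.7% of all genes were called higher in WT and 19.7% in TCF-1 cKO. Of 6 markers of dividing cells (Mki67, Top2a, Cdk1, Ccna2, Ccnb1 and Birc5), all but Top2a rose in WT and all 6 in TCF-1 cKO, where Cdk1 rose by 6.86 (SE 0.74, adjusted p = 0.000216). Their summed level at day 7 was 492 to 1470 CPM in WT and 1940 to 2243 CPM in TCF-1 cKO, without overlap, and 0 of the 6 passed between genotypes at either stage. The summed level of the 41 replication genes was 3914 to 5514 and 5974 to 6620 CPM in the same libraries, again without overlap, and 1844 to 2346 CPM in the 6 pre-transplant libraries. These sums are shares of library totals. In normalised CPM the 41 genes summed to 8127 to 8586 in WT day 7, 8602 to 10437 in TCF-1 cKO day 7 and 976 to 1697 pre-transplant, so the day 7 groups nearly touched. The markers of dividing cells summed to 1079 to 2279.5 and 2794 to 3644 normalised CPM at day 7.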

How the data were processed

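RNA of sorted CD8 T cells was made into cDNA with SMART-Seq HT, built into Nextera XT libraries and sequenced paired-end on a NovaSeq. The authors quantified transcripts with kallisto 0.46.2, and the deposited files give, per transcript, an estimated count (an expected count that need not be whole) and TPM. Their notes also name mm9 and limma, and the transcript release and strandedness are not given in the sources used here. From these, estimated counts were summed per gene (116374 of 117497 transcripts had a gene in GENCODE M21, GRCm38, with 99.5 to 99.7% of counts), rounded, and tested with edgeR 4.0.16 in R 4.3.3 (quasi-likelihood, TMM, filterByExpr, Benjamini-Hochberg over all genes, threshold 0.1) on the 6 libraries of a stage or genotype, and on 12 for the change of the genotype difference. Normalised CPM uses TMM over the 12 libraries, and TPM was summed per gene. A count of 3 equals 0.0922 to 0.667 CPM, and such limits cover counting error only. The GC correction subtracted each library's loess trend (span 0.4, degree 2). SE is the absolute log2 fold change divided by the root of F.

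Alternatives were limma 3.58.1 (voom, voom with quality weights, and on log2(TPM + 1) of the deposited TPM), DESeq2 1.42.0, other scalings, filters and thresholds, and leaving out each library. The fits were tested on simulated data with the same spread for every gene and no GC trend or outlying library. That test therefore does not cover these traits of the real libraries. The members and lists were chosen with earlier results of these data known. Genes given with every library's value are, in each role, the one with the highest mean TPM, and in each pairwise comparison up to 3 per direction with the smallest p among those called, and likewise up to 3 of the other replication genes. MCM subunits, Fen1 and the genes in counts of 5 or fewer were named besides. Tcf7, Cd8a and Cd4 checked labels. Same-numbered libraries were not paired, as their deviations did not all correlate. With 3 libraries per group that check cannot exclude a pairing.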

Additional observations from a re-analysis of the deposited data

How the results depend on the processing

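Counts of the 41 genes called at day 7 between genotypes (8 lower and 0 higher) moved most. Lower calls were 4 with library totals, 4 with the GC correction, 3 with GC and length corrected, 4 at FDR 0.05, 5 with the replicate block and 0 with the block and GC correction, and 0 to 8 when a library was left out. Of all 16026 genes, 663 were called lower with GC and length corrected, 1775 with the replicate block and 1277 at FDR 0.05. Higher calls were 5 with voom, 17 with quality weights, 9 with DESeq2, 5 on log2 TPM, 3 with a CPM filter, 7 in 1 fit over the 12 libraries and 0 to 11 with a library left out. Quality weights called 3254 of all 16026 genes higher and log2 TPM 880. The CPM filter called 499 of 13486 higher and the 1 fit 789 of 21526. Whether the replicate numbers mark pairs cannot be decided with 3 libraries per group. Correlations of deviations between same-numbered libraries ran from −0.106 to 0.115. In the day 7 comparison of the genotypes they were 0.0533, 0.0174 and 0.0659. Pre-transplant, quality weights gave 10 lower and 8 higher, DESeq2 2 higher, log2 TPM 1 higher, and leaving out a library 0 to 5 lower and 0 to 1 higher. Over all 18757 genes quality weights called 3075 lower and 4491 higher, DESeq2 919 higher and log2 TPM 287 higher. In WT between stages, DESeq2 gave 1 lower, log2 TPM 3 lower and 10 higher (median 0.56), library totals 1 lower (median 0.83), and leaving out a library 11 to 26 higher. There log2 TPM called 6023 of all 16790 genes lower and 709 higher. In TCF-1 cKO between stages, log2 TPM gave 8 lower and 18 higher (median 0.65), library totals 7 lower and 20 higher (median 0.91), and lower calls were 1 without a filter, with GC or GC and length corrected, with the replicate block, also with GC correction, in 1 fit over the 12 libraries and at FDR 0.05. Leaving out a library gave 1 to 2 lower and medians of 2.35 to 3.14. On log2 TPM 11648 of all 18535 genes were called lower and 1526 higher in TCF-1 cKO. For the change of the genotype difference, quality weights gave 13 higher, DESeq2 8, no filter 1 and leaving out a library 0 to 9. Over all 21526 genes quality weights called 2522 higher and DESeq2 987. Without a filter 182 of 33662 genes were called higher. The causes were not tested, except that leaving out a library or a stricter threshold reduces the data or calls by construction. The pre-transplant median turned from −0.30 to 0.06 with library totals. Among single genes recomputed, 178 values kept their side of the threshold and 31 lost a call (Mcm2, Mcm3, Uhrf1 and Ung). A count of 3 equals 0.0922 to 0.667 CPM over the 12 libraries, a chosen mark and not a measured limit of detection.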
